A study of Mus musculus with 9 samples.

Results

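The genes of the replication-dependent histone clusters were followed in rRNA-depleted total RNA of mouse podocytes, epithelial cells of the kidney whose foot processes cover the capillaries of the glomerulus. The members were all symbols of the deposited FPKM table that begin with Hist1h, Hist2h, Hist3h or Hist4h. They came to 67 of 23309 symbols, namely 6 linker histone H1 genes and, among the core histones, 18 H2A, 18 H2B, 12 H3 and 13 H4 genes. FPKM divide the fragments of a gene by its length and by the mapped fragments of the library, so levels can be set side by side between genes.

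There were 9 libraries, 3 in each of 3 groups, all from wildtype mice of 7 to 8 weeks with the mTmG reporter. In these mice a podocyte-directed Cre switches the reporter to green fluorescent protein (GFP), and RNA was taken from GFP-positive cells. The groups were ADR_D14 and ADR_D9, collected 14 and 9 days after a treatment that the labels abbreviate as ADR, and PBS, whose labelled treatment is PBS. Whether each library stands for its own animal is not in the labels, and p-values therefore cover library-to-library spread only.

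Histones are the proteins around which DNA is wrapped: H2A, H2B, H3 and H4 form the core of the nucleosome, and H1 binds the DNA between cores. The clustered genes are known for being transcribed mainly in S phase and for mRNAs that end in a stem-loop in place of a poly(A) tail, whereas variant genes outside the clusters are polyadenylated and are expressed in non-dividing cells too. Mature podocytes are known as cells that rarely divide.

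Many of the coding sequences are nearly the same, which bears on every value below. In GENCODE M21 transcripts (build GRCm38), the median share of 50-base stretches found in no other gene was 98.9% for H1, 27.0% for H2A, 55.5% for H2B, 38.0% for H3 and 60.5% for H4. The median identity between coding sequences of 2 members of a class was 96.4% for H2A, 94.8% for H2B, 97.6% for H3 and 93.9% for H4. Among the H1 genes tested below, this share was 91.5% for Hist1h1c, 97.7% for Hist1h1d and 68.0% for Hist1h1e. How reads that map to several places were handled is not given in the sources used here. Single members of the core classes are therefore uncertain, and to a lesser degree Hist1h1e. The first 90 coding bases of 6 H2B genes of cluster 1 show how little separates them, with capitals where a gene differs from Hist1h2bf.
Hist1h2bf: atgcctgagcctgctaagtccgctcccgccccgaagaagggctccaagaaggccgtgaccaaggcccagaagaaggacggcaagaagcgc
Hist1h2bk: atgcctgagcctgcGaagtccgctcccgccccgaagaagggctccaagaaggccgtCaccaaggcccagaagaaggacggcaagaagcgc
Hist1h2bl: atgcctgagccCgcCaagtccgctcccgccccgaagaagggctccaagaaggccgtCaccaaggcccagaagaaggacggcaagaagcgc
Hist1h2bn: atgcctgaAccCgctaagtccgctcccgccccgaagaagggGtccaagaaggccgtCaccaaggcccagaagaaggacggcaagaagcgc
Hist1h2bj: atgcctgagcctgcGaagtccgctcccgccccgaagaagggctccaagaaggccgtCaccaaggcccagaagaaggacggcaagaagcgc
Hist1h2bc: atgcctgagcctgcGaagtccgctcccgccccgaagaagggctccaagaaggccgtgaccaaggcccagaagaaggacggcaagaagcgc
Hist1h2bk differs from Hist1h2bf at 8 of 381 coding bases and Hist1h2bc at 6.

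The same stretch of 6 H2A genes, from GENCODE M21, separates cluster 1 from clusters 2 and 3, with capitals where a gene differs from Hist1h2ao.
Hist1h2ao: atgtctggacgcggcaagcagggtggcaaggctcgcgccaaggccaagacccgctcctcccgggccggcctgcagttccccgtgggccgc
Hist1h2ad: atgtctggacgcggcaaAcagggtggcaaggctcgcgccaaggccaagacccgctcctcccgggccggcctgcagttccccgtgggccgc
Hist1h2ag: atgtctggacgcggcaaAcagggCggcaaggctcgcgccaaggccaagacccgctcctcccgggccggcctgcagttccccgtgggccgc
Hist2h2ac: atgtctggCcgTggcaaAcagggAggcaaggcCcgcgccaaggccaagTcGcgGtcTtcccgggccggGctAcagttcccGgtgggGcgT
Hist2h2aa1: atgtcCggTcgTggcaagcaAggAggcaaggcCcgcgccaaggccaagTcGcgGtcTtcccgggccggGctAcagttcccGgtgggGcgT
Hist3h2a: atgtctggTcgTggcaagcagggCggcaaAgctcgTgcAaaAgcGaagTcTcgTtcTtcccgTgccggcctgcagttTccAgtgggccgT
Within cluster 1, Hist1h2ad and Hist1h2ag differ from Hist1h2ao at 3 of 393 coding bases each. Hist2h2aa1 differs from it at 34 and Hist3h2a at 45 coding bases.

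Column totals ran from 572787 to 723288 FPKM. Depth estimated from the spacing of low values, relative to PBS replicate 2, was 0.239, 0.460 and 0.569 in the ADR_D14 libraries, 0.786 to 0.889 in the ADR_D9 libraries and 1 to 1.085 in the PBS libraries. ADR_D14 replicate 1 and ADR_D9 replicate 3 stood apart from the other 7 libraries. In each of them, 19 of 21 genes that mark endothelium were at more than 4 times their highest PBS value. The same held for 17 and 5 of 19 markers of proximal tubule, 17 and 14 of 18 of later nephron segments, 2 and 6 of 15 of mesangial and mural cells, 12 and 14 of 26 of leukocytes, and 3 and 4 of 13 of red cells in these 2 libraries. The endothelial gene Emcn reached 244 and 424 FPKM in them, against 0.0621 to 4.44 FPKM in the other 7 libraries. Red cell markers, however, summed highest in ADR_D9 replicate 1, at 548 FPKM. In that library 2 of 13 exceeded 4 times their highest PBS value. In ADR_D14 replicate 1 and ADR_D9 replicate 3 they summed to 67.4 and 250 FPKM. Podocyte markers (19 genes) summed to 3190 FPKM in ADR_D14 replicate 1 and 10828 FPKM in ADR_D9 replicate 3, against 10101 to 16568 FPKM elsewhere. Values without these libraries are given beside several of the results. In such bulk samples, fewer cells of a type and less RNA per cell cannot be told apart.

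All classes were detected, at very unequal levels. The 67 genes together took 0.536%, 1.04% and 0.931% of the FPKM total in the ADR_D14 libraries, 0.908%, 0.980% and 0.498% in the ADR_D9 libraries and 0.901%, 1.17% and 1.38% in the PBS libraries. The lowest value of each ADR group was in its library with markers of other kidney cells. H2B and H2A made up most of the signal in every library: H2B took 40.04 to 57.7% of the histone FPKM in ADR_D14, 52.1 to 67.6% in ADR_D9 and 53.3 to 59.9% in PBS libraries. H2A took 31.2 to 52.1% in ADR_D14, 23.9 to 39.5% in ADR_D9 and 32.2 to 39.1% in PBS libraries. H3 did not exceed 0.852% of the histone FPKM in any library.

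**Figure D1:**
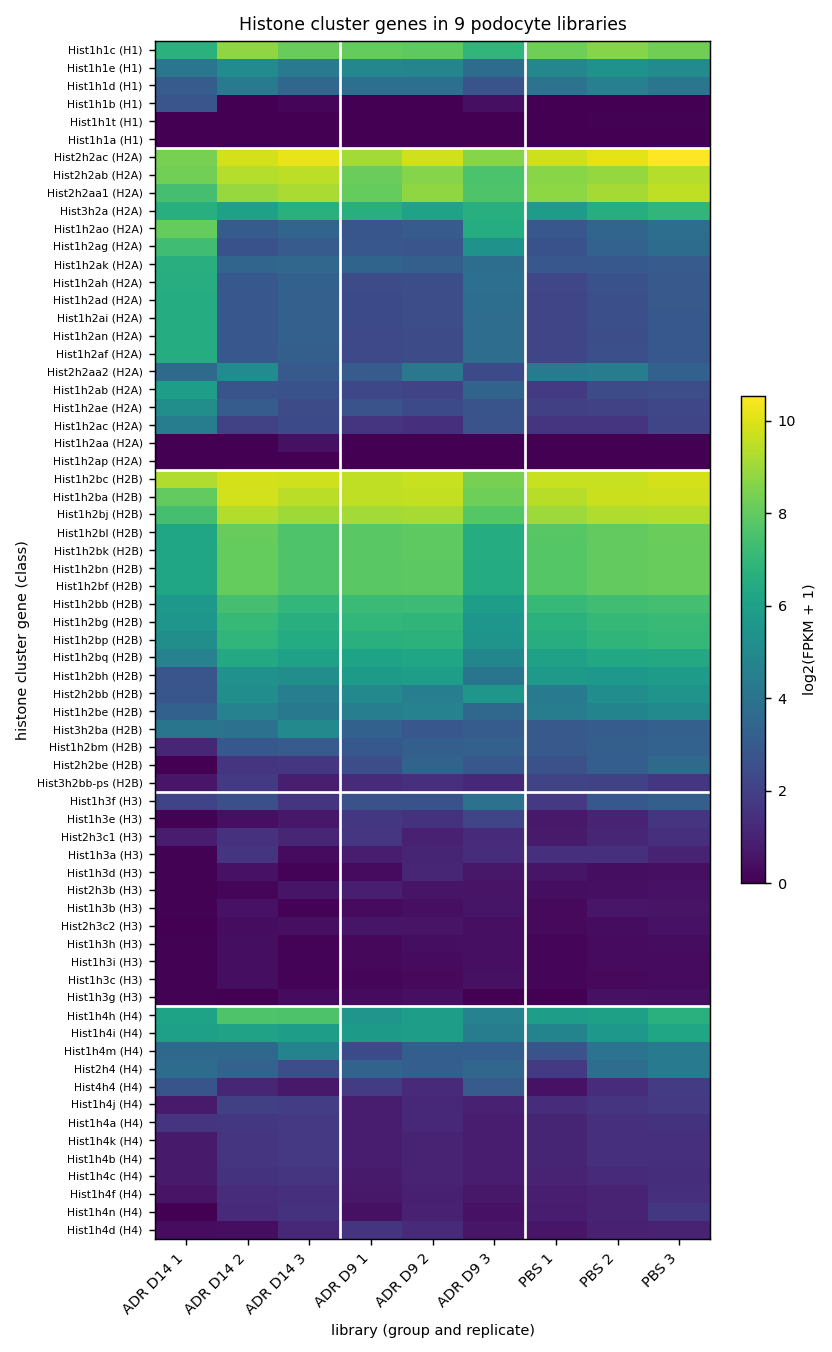
Level of each histone cluster gene (rows, grouped by class) in the 9 libraries (columns), as log2(FPKM + 1) by colour. Most H2B genes of cluster 1 and 3 of the 4 H2A genes of cluster 2 are the brightest, H3 genes are near the bottom of the scale, and the H2A genes of cluster 1 are bright in ADR_D14 replicate 1 and ADR_D9 replicate 3.

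Of the 67 members, 54 reached 1 FPKM in at least 3 libraries and were tested. The other 13 were 3 H1, 2 H2A and 8 H3 genes. The highest of their values was that of Hist1h1b, at 5.91 FPKM in ADR_D14 replicate 1. Hist1h1b, which encodes the H1 subtype known for its link to proliferating cells, was at 0.341 FPKM in ADR_D9 replicate 3 and 0.131 FPKM in ADR_D14 replicate 3, and was listed at 0 in the other 6 libraries. Hist1h3d and Hist2h3b, both H3 genes, ranged up to 1.196 and 0.821 FPKM. Hist1h1a was listed at 0 throughout.

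Hist1h1c made up most of the H1 signal in every library. This gene was at 105, 437 and 273 FPKM in ADR_D14, 262, 241 and 121 FPKM in ADR_D9 and 300, 392 and 304 FPKM in PBS libraries. The ADR_D9 libraries all lay below the PBS libraries, whereas the ADR_D14 libraries overlapped with both. Hist1h1e averaged 23.1 ± 9.04 FPKM in ADR_D14, 22.4 ± 8.94 in ADR_D9 and 34.0 ± 6.48 in PBS libraries (SD, n = 3 each). Hist1h1d was at 7.51, 19.1 and 10.2 FPKM in ADR_D14, 13.6, 13.3 and 5.57 FPKM in ADR_D9 and 15.4, 23.1 and 16.6 FPKM in PBS libraries, the ADR_D9 libraries again below all PBS libraries. It kept close to Hist1h1e: the ratio of Hist1h1d to Hist1h1e ranged from 0.455 to 0.570 over the 9 libraries. Of the 50-base stretches, 32.0% of those of Hist1h1e and 2.21% of those of Hist1h1d occur in other members. The part of shared reads in this ratio was not tested. The ratio of Hist1h1c to Hist1h1e was less even, from 6.36 in ADR_D14 replicate 1 to 14.1 in ADR_D14 replicate 3.

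Among H2A genes, Hist2h2ac, Hist2h2ab and Hist2h2aa1 of cluster 2 had the highest means, while Hist2h2aa2 of the same cluster ranged from 4.14 to 33.3 FPKM. Hist2h2ac was at 329, 933 and 1172 FPKM in ADR_D14, 536, 873 and 400 FPKM in ADR_D9 and 863, 1118 and 1494 FPKM in PBS libraries. The groups overlapped, and the lowest value was again in ADR_D14 replicate 1. Hist2h2aa1, whose coding start is printed above beside that of Hist2h2ac, followed it at a ratio of 1.94 to 2.03 (Hist2h2ac over Hist2h2aa1) in all 9 libraries. Hist2h2ab did not: its ratio to Hist2h2ac was 0.947, 0.718 and 0.608 in ADR_D14, 0.528, 0.459 and 0.469 in ADR_D9 and 0.469, 0.419 and 0.437 in PBS libraries, so that every ADR_D14 library lay above the other 6. This ratio was singled out after its values were seen and was not tested. Hist3h2a, the H2A gene of cluster 3, averaged 88.5 ± 20.4 FPKM in ADR_D14, 88.3 ± 19.7 in ADR_D9 and 90.3 ± 33.5 in PBS libraries (SD, n = 3 each).

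The H2B genes of highest mean were Hist1h2bc and Hist1h2ba. Hist1h2bc was at 632, 926 and 889 FPKM in ADR_D14, 745, 807 and 336 FPKM in ADR_D9 and 809, 810 and 942 FPKM in PBS libraries. Hist1h2ba, known as the testis form of H2B, was listed at 257 to 895 FPKM, and 38.2% of its 50-base stretches occur in other members. In 10 H2B genes of cluster 1, each was linked to another by a ratio that stayed within 1.2 times between its lowest and highest library. Hist1h2bk over Hist1h2bf, for example, ranged from 1 to 1.008, Hist1h2bn over Hist1h2bf from 1 to 1.004, and Hist1h2bj over Hist1h2bf from 2.32 to 2.64. These ratios hold over libraries in which Hist1h2bf itself ranged from 73.6 to 275 FPKM. In ADR_D14 replicate 1, however, Hist1h2bf, Hist1h2bk, Hist1h2bl and Hist1h2bn were all listed at the same value, 73.6 FPKM. The share of 50-base stretches found in no other gene differed widely among the 10, at 13.6% for Hist1h2bn and 61.8% for Hist1h2ba, for example, and the part of shared reads in the even ratios was not tested. Hist1h2bc over Hist1h2bf was 3.18 to 4.51 in 8 libraries and 8.58 in ADR_D14 replicate 1. Groups of the same kind held 5 H2A genes of cluster 1 (Hist1h2ad, Hist1h2af, Hist1h2ah, Hist1h2ai and Hist1h2an), the H4 genes Hist1h4b, Hist1h4c and Hist1h4k, and the pair Hist2h2aa1 and Hist2h2ac.

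H3 and H4 were lower. Hist1h3f, the H3 gene of highest mean, was at 3.29, 5.02 and 2.08 FPKM in ADR_D14, 5.10, 5.24 and 14.6 FPKM in ADR_D9 and 2.41, 6.52 and 8.26 FPKM in PBS libraries. Hist2h3c1 and Hist1h3a stayed between 0.0368 and 2.17 FPKM. Among H4 genes, Hist1h4i averaged 61.6 ± 4.77 FPKM in ADR_D14, 43.4 ± 19.7 in ADR_D9 and 48.6 ± 23.0 in PBS libraries (SD, n = 3 each). Hist1h4m averaged 15.6 ± 8.49 FPKM in ADR_D14, 6.63 ± 2.13 in ADR_D9 and 13.5 ± 7.23 in PBS libraries (SD, n = 3 each). Hist2h4 ranged from 2.44 to 19.6 FPKM, both ends being PBS libraries.

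**Figure D2:**
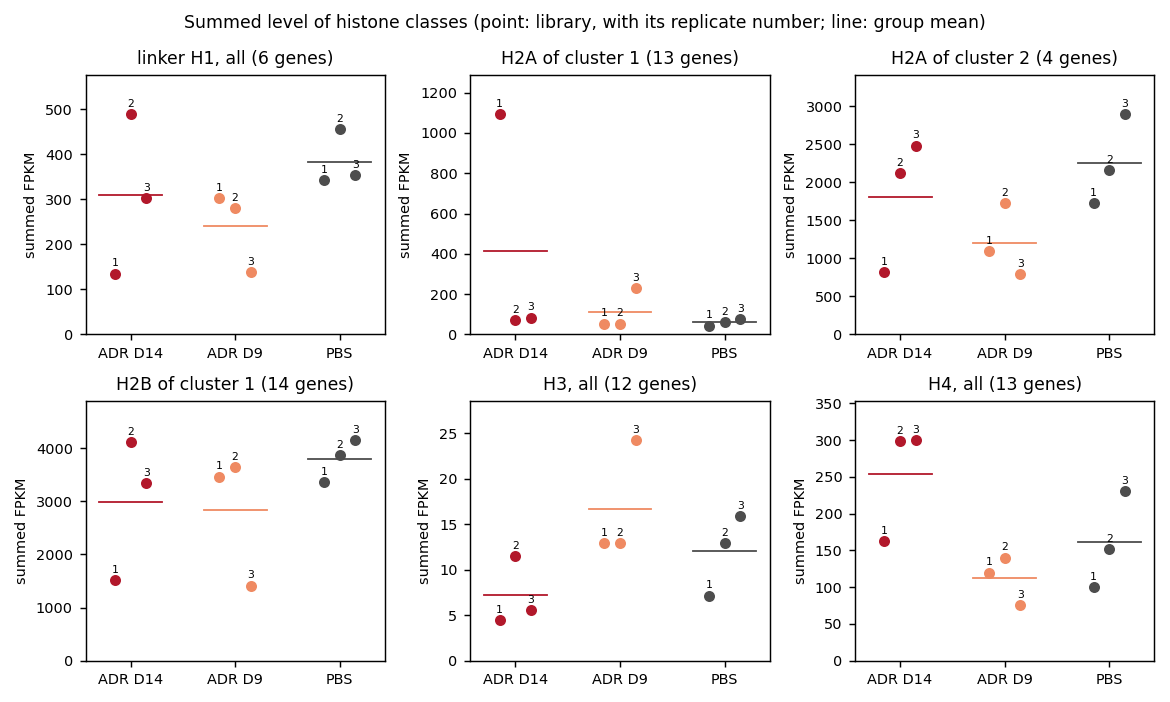
Summed FPKM of each histone class or cluster (one panel each, axis from 0) in ADR D14, ADR D9 and PBS; points are libraries with their replicate number and lines are group means. The 13 H2A genes of cluster 1 summed to 1093 FPKM in ADR_D14 replicate 1 and 232 FPKM in ADR_D9 replicate 3, against 43.6 to 83.1 FPKM in the other 7 libraries.

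The H2A genes of cluster 1 stood apart from the rest of the histones in ADR_D14 replicate 1 and ADR_D9 replicate 3. These genes lie outside the naming rule and were chosen after their values were seen. Hist1h2ao was at 265, 7.48 and 9.81 FPKM in ADR_D14, 6.15, 7.15 and 92.3 FPKM in ADR_D9 and between 6.26 and 13.2 FPKM in PBS libraries. Hist1h2ag was at 157 and 41.6 FPKM in the 2 libraries and at 5.25 to 12.4 FPKM in the other 7. All 11 tested H2A genes of cluster 1 exceeded the highest PBS library in both, with a median difference from the PBS mean of 3.96 in ADR_D14 replicate 1 and 1.21 in ADR_D9 replicate 3 on the log2(FPKM + 1) scale.

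The other abundant groups lay low in the same 2 libraries, and in part in other ADR libraries too. All 3 tested H1 genes were under the lowest PBS library in both, with median differences of −1.17 and −1.44. Of the 14 H2B genes of cluster 1, 14 and 13 were under the lowest PBS library, with medians of −1.68 and −1.41. Of the 4 H2A genes of cluster 2, 3 and 4 were under it. The 3 H1 genes were under the lowest PBS library in ADR_D14 replicate 3 and ADR_D9 replicate 2 as well, and 2 of them in ADR_D9 replicate 1. So were 10 of 14 H2B genes of cluster 1 in ADR_D14 replicate 3, and 4 of 4 H2A genes of cluster 2 in ADR_D9 replicate 1. In ADR_D14 replicate 1 and ADR_D9 replicate 3, 31 and 28 of 40 genes of S phase and proliferation stood at 1 FPKM or more. The other libraries had 13 to 17. Over all genes, 10086 and 10474 reached 1 FPKM in these 2 libraries, against 8629 to 9267 in the others. Top2a, a topoisomerase of dividing cells, was at 4.15 and 2.11 FPKM, against at most 0.122 FPKM elsewhere. Cdk1, the mitotic kinase, was at 37.0 and 17.5 FPKM, against at most 2.20 FPKM elsewhere, and Rrm2, a subunit of ribonucleotide reductase, at 26.3 and 22.1 FPKM, against at most 3.22 FPKM. These 3 genes were picked as high ones after their values were seen, and the list was mixed: 14 and 11 of the 40 exceeded 4 times the highest PBS library. Rrm1, the other subunit of the reductase, was at 5.98 FPKM in ADR_D14 replicate 1 and 11.2 FPKM in ADR_D9 replicate 3, against 37.6 to 52.2 FPKM in PBS libraries, and Ccne1, Ccne2 and Mcm10 were listed at 0 in ADR_D14 replicate 1. The part of the markers of other kidney cells, and of the depth of these libraries, in the histone values was not tested.

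**Figure D3:**
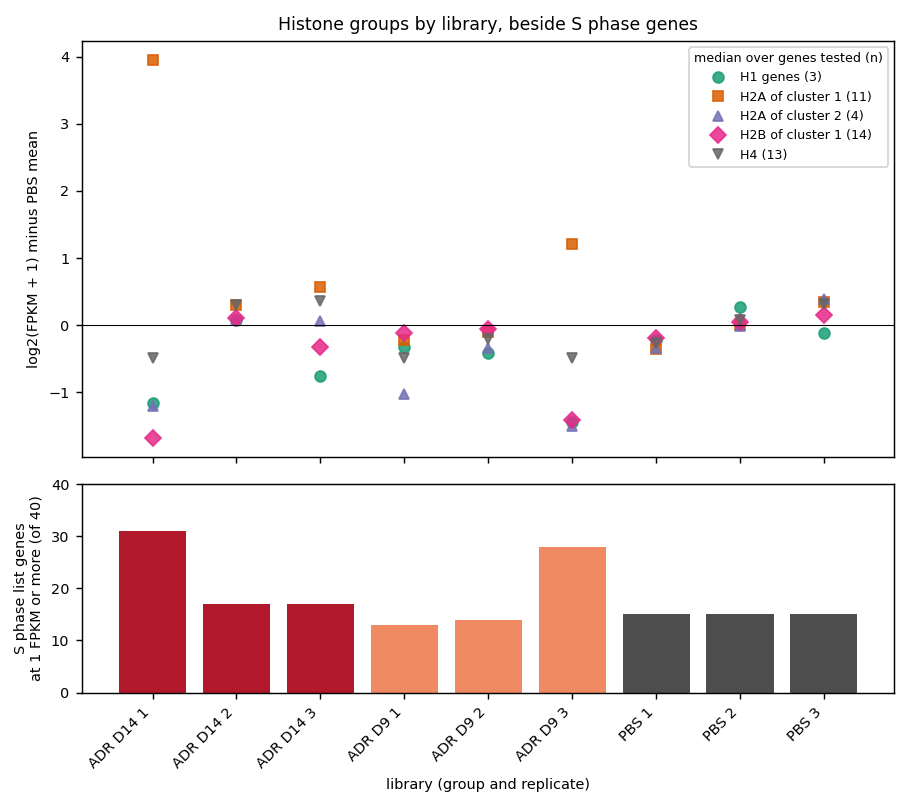
Upper panel: median difference from the PBS mean, in log2(FPKM + 1), of the tested genes of each histone group in each library. Lower panel: number of 40 S phase genes at 1 FPKM or more. ADR_D14 replicate 1 and ADR_D9 replicate 3 have the highest H2A cluster 1 medians (3.96 and 1.21) and the highest S phase counts (31 and 28). They also have the most genes at 1 FPKM or more over all genes (10086 and 10474).

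At 9 days after ADR, set against PBS, no histone cluster gene passed limma over all 9788 genes tested (0 of 54, smallest adjusted p = 0.9999), and the share of all genes called was 0%. Before adjustment, 304 of all genes and 1 of the members, the H3 gene Hist1h3e, had p under 0.05. Each log2 change has the median over the tested genes of its fit subtracted. This median was 0.04 here, −0.15 for ADR_D14 against PBS and −0.22 for ADR_D14 against ADR_D9. The p-values throughout are those of the change before this subtraction, tested against 0. Without a call, 38 of the 54 members lay below the median gene, and the median over members was −0.45, against 0 over all genes by construction. By class the median was −0.77 for H1 (3 genes), 0.27 for H2A of cluster 1 (11 genes), −0.88 for H2A of clusters 2 and 3 (5 genes), −0.55 for H2B (18 genes), 0.28 for H3 (4 genes) and −0.44 for H4 (13 genes).

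For 10 of the 54 members every ADR_D9 library lay below every PBS library, and for 2 every ADR_D9 library lay above. Over all genes tested these shares were 6.63% and 6.77%. The 10 were Hist1h1c, Hist1h1d, Hist2h2ab, Hist1h2bc, Hist3h2bb-ps, Hist1h4h, Hist1h4j and the linked genes Hist1h4b, Hist1h4c and Hist1h4k. The 2 above were Hist1h2ae and Hist1h2ak, both H2A genes of cluster 1. Hist1h1c had a log2 change of −0.77, and −0.40 without ADR_D9 replicate 3. Without that library the class medians were −0.40 for H1, −0.18 for H2A of cluster 1 and −0.10 for H2B of cluster 1, against −0.55 for H2B of cluster 1 with it.

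At 14 days after ADR, set against PBS, an H2B gene rose and another fell: Hist3h2ba and Hist2h2be passed limma, 1 of 54 members higher and 1 lower. Of all genes tested, 6.32% were higher and 10.7% lower, so the share of histone genes called was below that of all genes. Hist3h2ba, an H2B gene of the small cluster 3, was at 16.1, 14.5 and 30.4 FPKM in ADR_D14, 8.68, 6.36 and 7.39 FPKM in ADR_D9 and 6.64, 7.45 and 8.36 FPKM in PBS libraries. Every ADR_D14 library lay above the other 6, and the mean of 20.3 ± 8.76 FPKM in ADR_D14 was 2.72 times that of 7.48 ± 0.861 FPKM in PBS libraries (SD, n = 3 each). Its log2 change was 1.41 ± 0.31 (SE, limma adjusted p = 0.027), and 1.56 (limma adjusted p = 0.025) without ADR_D14 replicate 1. The promoter of Hist3h2ba, from RefSeq on GRCm38.p6, is shown because this was the member called higher in both comparisons that involve ADR_D14. It lies on the + strand at chr11:58948661-58948960, runs from 250 bases before to 50 after the start, and has capitals for matches to CCAAT and TATAAA on either strand.
Hist3h2ba: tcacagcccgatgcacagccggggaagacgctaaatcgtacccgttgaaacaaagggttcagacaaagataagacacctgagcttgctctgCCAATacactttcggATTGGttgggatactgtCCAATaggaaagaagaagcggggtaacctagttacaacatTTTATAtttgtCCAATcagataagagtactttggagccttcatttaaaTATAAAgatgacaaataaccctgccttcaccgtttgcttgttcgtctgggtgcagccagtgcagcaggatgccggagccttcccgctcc

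Hist2h2be, an H2B gene of cluster 2, was listed at 0 in ADR_D14 replicate 1 and at 2.04 and 2.20 FPKM in the other ADR_D14 libraries. It was at 4.70, 9.37 and 6.35 FPKM in ADR_D9 and at 5.11, 7.88 and 11.5 FPKM in PBS libraries. All ADR_D14 libraries lay below all others, and none of its 50-base stretches occurs in another gene. The log2 change was −1.90 ± 0.50 (SE, limma adjusted p = 0.027), and −1.32 (limma adjusted p = 0.030) without the library listed at 0. The members Hist3h2ba and Hist2h2be both missed the threshold without PBS replicate 2 (limma adjusted p = 0.11 each) or without PBS replicate 3 (0.073 and 0.095), and Hist3h2ba also without PBS replicate 1 (0.069). No gene of 9680 passed without PBS replicate 2. Without PBS replicate 3, 54 of 9671 genes were higher and 103 lower. A fit of the compared groups alone gave a limma adjusted p of 0.073 for Hist3h2ba and 0.069 for Hist2h2be. In that fit 169 of 9788 genes were higher and 301 lower.

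**Figure D4:**
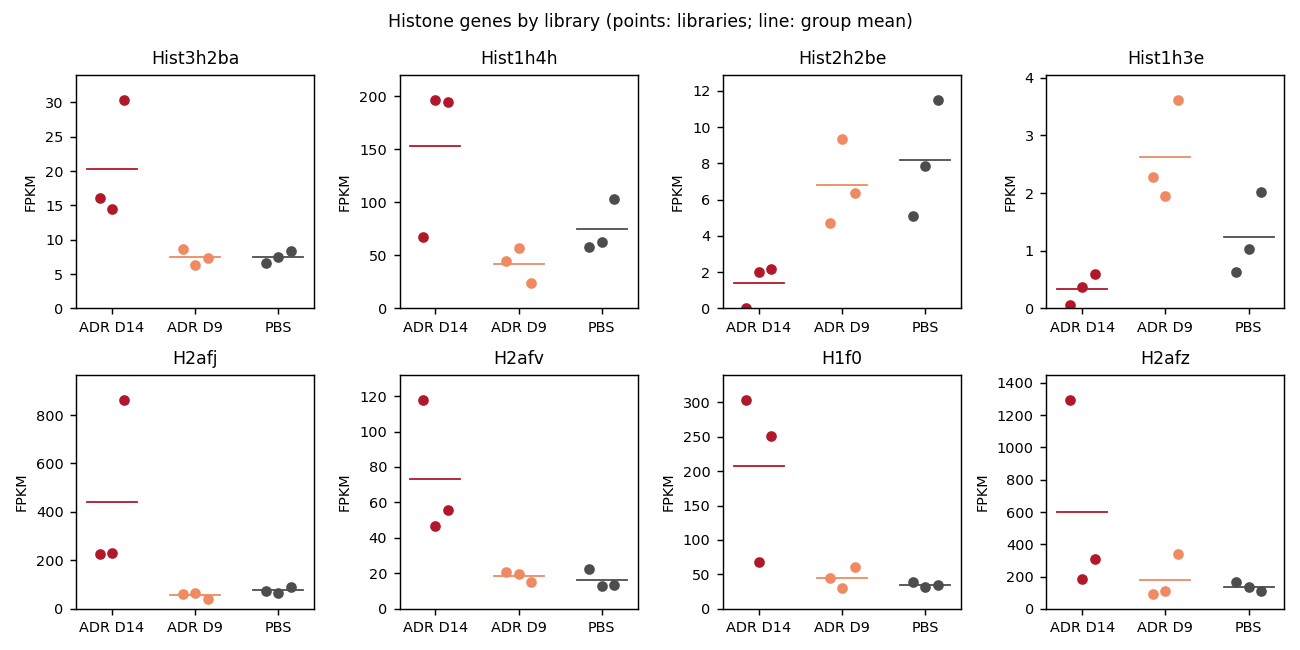
FPKM per library (points) and group mean (line) in ADR D14, ADR D9 and PBS for the 4 histone cluster genes that passed a test and for 4 histone genes outside the clusters; each axis starts at 0. Hist3h2ba lies between 14.5 and 30.4 FPKM in ADR_D14 libraries and between 6.36 and 8.68 FPKM in the other 6.

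Over the 54 members the median change on day 14 against PBS was 0.02 relative to the median gene, with 28 above it and 26 below. It was −0.44 for H1, 1.72 for H2A of cluster 1, 0.02 for H2A of clusters 2 and 3, −0.50 for H2B, −0.44 for H3 and 0.20 for H4. Without ADR_D14 replicate 1 it was −0.18 for H1, 0.65 for H2A of cluster 1, 0.07 for H2B of cluster 1 and 0.54 for H4. The groups did not overlap for 5 members above and 3 below, against 15.6% and 23.8% of all genes. The 5 were Hist3h2ba, Hist1h4a and the H2A genes Hist1h2ab, Hist1h2ae and Hist1h2ak of cluster 1, and the 3 were Hist2h2be, Hist1h3e and Hist1h2bh.

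The third comparison, of day 14 with day 9, called 4 of 54 members by limma, 2 higher and 2 lower in ADR_D14. Of all genes, 5.71% were higher and 9.98% lower. Hist3h2ba rose and Hist2h2be fell here too, with log2 changes of 1.48 ± 0.31 and −1.61 ± 0.50 (SE, limma adjusted p = 0.028 and 0.041). This comparison shares the ADR_D14 libraries with the previous one. Hist1h4h, an H4 gene of which 54.2% of the 50-base stretches occur in no other gene, was the third. It was at 67.8, 197 and 195 FPKM in ADR_D14, 44.7, 57.1 and 24.4 FPKM in ADR_D9 and 58.2, 62.8 and 103 FPKM in PBS libraries. The ADR_D14 libraries lay above all ADR_D9 libraries but overlapped with the PBS libraries, and the log2 change was 1.98 ± 0.48 against ADR_D9 (SE, limma adjusted p = 0.041). Against PBS it was 1.07 ± 0.48 (SE, limma adjusted p = 0.21), and 1.60 (limma adjusted p = 0.039) without ADR_D14 replicate 1. In the fit of all libraries, before any of the alternatives given with the processing, no other of the 13 H4 genes was called.

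Hist1h3e, a low H3 gene, fell in ADR_D14 relative to ADR_D9. It was at 0.0587, 0.366 and 0.592 FPKM in ADR_D14, 2.28, 1.96 and 3.62 FPKM in ADR_D9 and 0.634, 1.04 and 2.02 FPKM in PBS libraries. The ADR_D14 libraries lay below all others, and its log2 change was −1.21 ± 0.30 against ADR_D9 (SE, limma adjusted p = 0.019). All its ADR_D14 values are under 1 FPKM, in the libraries of lowest estimated depth, and the part of depth was not tested. Of the 50-base stretches of Hist1h3e, 26.6% occur in no other gene. In ADR_D14 replicate 1 the H3 genes Hist1h3b, Hist1h3d and Hist2h3b were listed at the same value as Hist1h3e. The fall may thus not be that of a single gene, and the part of shared reads was not tested. Leaving out ADR_D9 replicate 1 or 3 removed all 4 calls, and a fit of the 2 groups alone did so too (limma adjusted p = 0.052 to 0.089). Without ADR_D9 replicate 1, 210 of all 9670 genes were higher and 291 lower. Without ADR_D9 replicate 3, 137 of 9558 were higher and 270 lower. In the fit of the 2 groups, 75 of 9788 were higher and 187 lower.

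Over the 54 members the median change of ADR_D14 against ADR_D9 was 0.48, with 45 members above the median gene. By class it was 0.38 for H1, 1.38 for H2A of cluster 1, 0.57 for H2A of clusters 2 and 3, 0.11 for H2B, −0.48 for H3 and 0.68 for H4. The groups did not overlap for 5 members above, of which 4 were H4 genes (Hist1h4h, Hist1h4a, Hist1h4i and Hist1h4m), and 3 below, against 13.2% and 24.6% of all genes. Without ADR_D14 replicate 1, 10 members passed, 8 higher and 2 lower. Among them were the H4 genes Hist1h4a, Hist1h4b, Hist1h4c, Hist1h4h, Hist1h4j and Hist1h4k. In that fit 759 of all 9568 genes were higher and 1372 lower. Hist1h4b and Hist1h4k were listed at the same value in every library, between 0.677 and 2.37 FPKM. Hist1h4a, Hist1h4c and Hist1h4j had exactly that value in some libraries. These calls are therefore not separate results. Without both libraries that carried markers of other kidney cells 3 members passed, all higher: Hist1h4h, Hist1h4j and Hist3h2ba. Of all 9377 genes in this fit, 447 were higher and 831 lower.

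**Figure D5:**
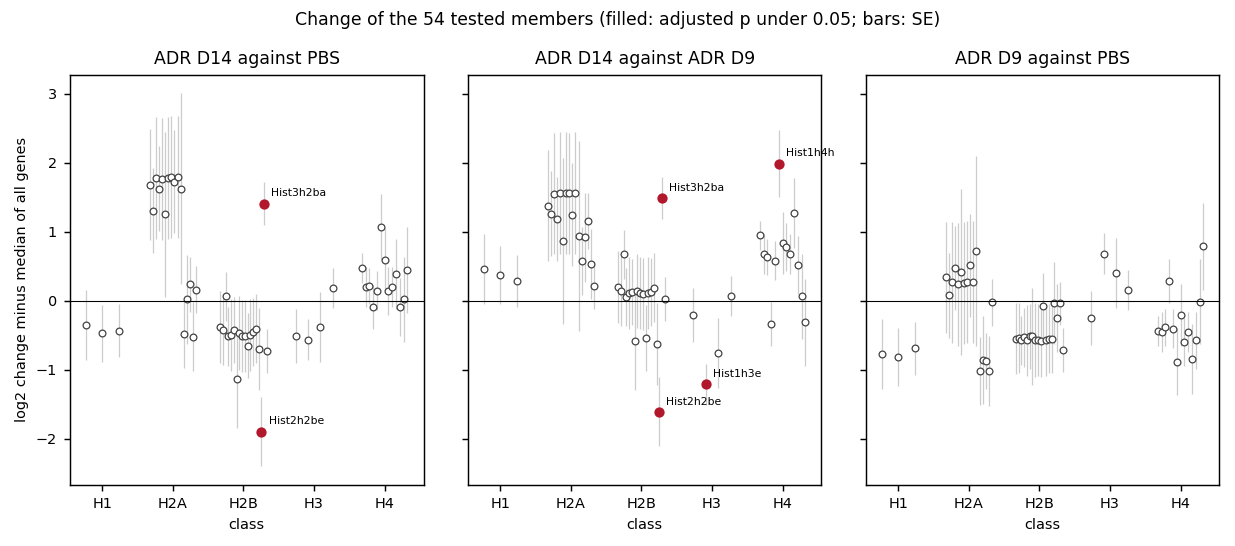
Log2 change of each of the 54 tested members minus the median of all genes (y axis) by class (x axis), one panel per comparison, with SE bars; filled points passed limma at an adjusted p under 0.05. The filled points number 0 for ADR_D9 against PBS, 2 for ADR_D14 against PBS and 4 for ADR_D14 against ADR_D9.

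Gene length moved with the day 14 changes. The median transcript length was 531 bases for members and 3192 bases for genes tested, and across genes Spearman's rho of length with the change was 0.072 for ADR_D9 against PBS, −0.336 for ADR_D14 against PBS and −0.375 for ADR_D14 against ADR_D9 (9241 genes, which are not independent replicates). With that trend removed from each library, the change of Hist3h2ba was 0.49 against PBS and 0.45 against ADR_D9, and that of Hist1h4h 0.84 against ADR_D9, none past the threshold (limma adjusted p = 0.39, 0.50 and 0.32). Hist2h2be, whose transcript is 2620 bases long, had −1.97 against PBS (limma adjusted p = 0.047) and −1.69 against ADR_D9, where its call was lost (limma adjusted p = 0.068). Hist1h3e had −2.09 against ADR_D9 (limma adjusted p = 0.021). The H4 median on day 14 turned to −0.65 against PBS and −0.32 against ADR_D9, the H2B cluster 1 median became −1.45 and −1.02, and the H2A cluster 1 median 0.74 and 0.34. The sign of the H1 median against ADR_D9 and of the median of H2A outside cluster 1 in both day 14 comparisons also turned (−0.02, −0.95 and −0.19).

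Promoters were read for 60 members in the RefSeq table (GRCm38.p6), each from 250 bases before to 50 after the start, and searched on both strands for 4 words. Each word was counted on its own, also where matches overlapped. CCAAT was in all 6 H1, 17 H2A, 15 H2B and 10 H3 promoters and in 3 of 12 H4 promoters, against 37.4% of 32851 promoters of the table. TATAAA was in 35 of 60, against 13.6%. The octamer ATTTGCAT was in 7 H2A and 6 H2B promoters and in no other class, against 1.74%. AAACACA, known as the H1 box, was in 5 of 6 H1 promoters and in 4 of the other 54, against 7.18%. The promoters of Hist1h1c, on the + strand at chr13:23738557-23738856, and of Hist1h4h, on the + strand at chr13:23530794-23531093, are shown as those of the most abundant H1 gene and of the called H4 gene, with capitals for these words.
Hist1h1c: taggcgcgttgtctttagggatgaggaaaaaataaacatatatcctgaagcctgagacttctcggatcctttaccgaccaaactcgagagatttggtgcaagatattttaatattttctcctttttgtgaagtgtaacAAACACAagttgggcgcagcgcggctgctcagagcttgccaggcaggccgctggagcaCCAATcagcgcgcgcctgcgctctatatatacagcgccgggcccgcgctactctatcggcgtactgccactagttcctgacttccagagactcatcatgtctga
Hist1h4h: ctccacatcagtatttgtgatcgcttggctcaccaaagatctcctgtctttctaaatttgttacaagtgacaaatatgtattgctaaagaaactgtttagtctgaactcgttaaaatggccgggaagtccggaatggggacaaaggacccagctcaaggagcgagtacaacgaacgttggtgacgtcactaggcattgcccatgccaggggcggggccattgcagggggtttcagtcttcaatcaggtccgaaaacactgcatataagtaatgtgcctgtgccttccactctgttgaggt
Hist1h4h holds none of the 4 words in this window.

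Histone genes outside the clusters were set beside the members, from a list of 11. On day 14 3 of 10 tested genes were higher against PBS and against ADR_D9, and none lower, with a median of 1.16 and 0.87 relative to the median gene. The shares over all genes, for this and the lists that follow, were 6.32% higher and 10.7% lower against PBS, and 5.71% higher and 9.98% lower against ADR_D9. H2afj, a variant of H2A, was at 225, 230 and 863 FPKM in ADR_D14, 60.2, 66.9 and 38.7 FPKM in ADR_D9 and 74.5, 65.9 and 89.8 FPKM in PBS libraries (log2 change 2.35 ± 0.50 SE against PBS, limma adjusted p = 0.023). H2afv, a form of H2A.Z, was at 118, 46.9 and 55.7 FPKM in ADR_D14 and 12.9 to 22.3 FPKM in all others (2.19 ± 0.37 SE against PBS, limma adjusted p = 0.013). H1f0, the linker histone known from differentiated cells, was at 303, 67.5 and 251 FPKM in ADR_D14, 45.3, 30.5 and 60.2 FPKM in ADR_D9 and 38.7, 31.6 and 35.1 FPKM in PBS libraries (2.42 ± 0.52 SE against PBS, limma adjusted p = 0.024). The ADR_D14 libraries lay above all others for each of the 3 genes. Without ADR_D14 replicate 1 all 3 passed against PBS, with log2 changes of 2.71 for H2afj, 1.82 for H2afv and 2.04 for H1f0 (limma adjusted p = 0.019, 0.013 and 0.042), while against ADR_D9 H1f0 did not (0.065). Without ADR_D9 replicate 3 none of the 10 passed against ADR_D9 (smallest limma adjusted p of the 3 genes 0.052). In that fit 137 of all 9558 genes were higher and 270 lower. This list and those that follow were not examined with the length trend removed, and the part of length in their changes was not tested. H3f3b and H3f3a, which encode the H3.3 variant, averaged 2318 ± 1110 and 997 ± 451 FPKM in ADR_D14, 1198 ± 444 and 1496 ± 335 in ADR_D9 and 1386 ± 292 and 1598 ± 83.1 in PBS libraries (SD, n = 3 each), far above the clustered H3 genes, and neither passed with all libraries in the fit. Without ADR_D14 replicate 1, H3f3b passed against ADR_D9, higher, beside H2afj and H2afv. Without that library and ADR_D9 replicate 3 together, H2afj, H2afv, H2afz and H3f3b passed against ADR_D9, all higher. In these fits 759 of 9568 and 447 of 9377 genes were higher. In ADR_D9 against PBS 0 of the 10 passed.

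Of the histone chaperones, which carry histones to and from DNA, 3 of 18 tested were higher and 2 lower on day 14 against PBS and against ADR_D9, the share lower being near that of all genes. Asf1b averaged 15.1 ± 7.66 FPKM in ADR_D14, 3.28 ± 1.46 in ADR_D9 and 2.54 ± 0.317 in PBS libraries (SD, n = 3 each). Dnajc9 and Rbbp7 were the others that rose, with log2 changes of 1.39 and 1.49 against PBS (limma adjusted p = 0.020 and 0.017). Ipo4, an importin, averaged 4.41 ± 1.58 FPKM in ADR_D14, 16.7 ± 3.31 in ADR_D9 and 19.3 ± 2.92 in PBS libraries (SD, n = 3 each), and Nap1l1 fell by 1.33 on the log2 scale against PBS. The same 5 genes passed in both day 14 comparisons without ADR_D14 replicate 1, whereas without ADR_D9 replicate 3 Ipo4 alone passed against ADR_D9. Of 19 tested genes for transcription, processing and decay of histone mRNA 1 was lower and none higher in both day 14 comparisons: Sympk, the scaffold of the cleavage complex, at 1.82, 0.849 and 0.265 FPKM in ADR_D14, 5.36, 5.32 and 6.18 FPKM in ADR_D9 and 3.37, 9.99 and 17.3 FPKM in PBS libraries. Slbp, which binds the histone stem-loop, was at 68.4, 122 and 85.4 FPKM in ADR_D14, 49.4, 51.2 and 104 FPKM in ADR_D9 and 72.4, 55.6 and 48.3 FPKM in PBS libraries, and did not pass. Of 17 tested S phase genes, Fen1, a flap endonuclease, alone was called, higher on day 14 at 27.4 ± 10.1 FPKM in ADR_D14, 10.5 ± 3.56 in ADR_D9 and 7.49 ± 0.397 in PBS libraries (SD, n = 3 each). Of 18 tested podocyte markers 6 were lower against PBS and 9 against ADR_D9, and none higher. Without ADR_D14 replicate 1 these were 7 and 9. Against PBS without that library, Fen1 and Sympk still passed (limma adjusted p = 0.031 and 0.018) and Pcna, the sliding clamp of replication, also did. Against ADR_D9 Fen1 missed the threshold without ADR_D14 replicate 1 (0.063) or ADR_D9 replicate 3 (0.068), and Sympk without the second of these (0.12). Of the genes for histone mRNA, Cstf2 and Upf1 were lower beside Sympk against ADR_D9 without ADR_D14 replicate 1. With both libraries left out, Upf1 alone of these was lower against ADR_D9, while against PBS Lsm1 was higher and Sympk lower. None of these lists had a called gene in ADR_D9 against PBS.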

How the data were processed

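RNA was measured in 9 libraries of sorted podocytes, 3 in each of 3 groups, and the values are FPKM that the authors deposited in 1 table. Bowtie 0.12.7 and Cufflinks, with mm9 as build, stand in the submitters' processing notes with no role given; annotation, strand and multi-mapped reads are not described in the sources used here. The table has 23813 rows, and of rows that share a symbol (260 symbols) the one of highest mean was kept, which left 67 members from 73 rows. FPKM are not counts, so the test was limma 3.58.1 (R 4.3.3), with its variance trend, on log2(FPKM + 1), a scale that understates changes of low genes. The fit held all 9 libraries and the group as its only term, was two-sided, and covered genes that reached 1 FPKM in 3 or more libraries, with Benjamini-Hochberg adjustment over all 9788 genes. An adjusted p under 0.05 is called past the test. An exact 0 can be a failed estimate. Read counts were not used here, so no counting interval is given; relative depth came from the most frequent ratio between libraries over values under 0.3 FPKM. The fit was tested on simulated data.

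Transcripts and coding sequences were those of GENCODE M21 and promoters those of RefSeq (GRCm38.p6), matched by symbol for 66 members with a coding sequence and 60 with a promoter. Builds differ from mm9, so sequences were matched to genes by name only. Lengths were matched for 94.41% of genes tested.

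The members, the gene lists and the tests were chosen with earlier results of these data known. Genes named were up to 4 tested members of highest mean per class, members past the test, up to 3 untested members of highest mean, and from other lists up to 4 genes past the test and up to 3 of highest mean; those printed were picked from these, and genes outside the rule are said to be so or serve as examples of the marker and S phase lists. Alternatives were another pseudocount, filters, scalings, variance models, summed rows, a fit of only 2 groups, a block for the replicate number, removal of a trend on length, another threshold, and each library left out; leaving out 2 libraries together was added after seeing the data.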

Additional observations from a re-analysis of the deposited data

Results flagged for a closer look

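The changes on day 14 and on day 9 share the PBS libraries, and their difference is the comparison of ADR_D14 with ADR_D9. This holds before the median gene is subtracted. It was subtracted in each comparison apart, so the printed changes differ by slightly other amounts than the printed differences. By that test (limma, adjusted over all genes) 4 histone cluster genes differed between the 2 times. Hist1h4h differed by 1.98 on the log2 scale, with changes against PBS of 1.07 on day 14 and −0.88 on day 9. Hist3h2ba differed by 1.48, with changes of 1.41 on day 14 and −0.04 on day 9. Hist2h2be differed by −1.61, with changes of −1.90 on day 14 and −0.25 on day 9. Hist1h3e differed by −1.21, with changes of −0.56 on day 14 and 0.68 on day 9. How these calls fare with 1 library left out is given with the processing.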

How the results depend on the processing

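The count of members past limma for ADR_D9 against PBS was 0 under every alternative run. For ADR_D14 against PBS, 2 members passed; 1 passed with a pseudocount of 0.1 and 1 without a filter, Hist3h2ba in both cases, and 0 when only the groups compared were fitted. Leaving out 1 library gave 0 to 4, with 0 without PBS replicate 2 or 3, 1 without PBS replicate 1 and 4 without ADR_D14 replicate 2. Counts over all genes moved too. They were 0 of 9680 without PBS replicate 2, and 54 higher and 103 lower of 9671 without PBS replicate 3. With all libraries they were 619 and 1051 of 9788. With the length trend removed 2 members passed, Hist2h2be and Hist3h2bb-ps. For ADR_D14 against ADR_D9, 4 members passed. Without a filter 0 passed, and 0 with only the groups compared. There were 2 with a mean of at least 5 FPKM, 2 with quantile normalization and 2 with a common FPKM total. With quantile normalization Hist3h2ba alone of the 4 was still called, and the other member was a different one. With the length trend removed 1 passed, and 1 with the replicate block and the length trend removed. Leaving out 1 library gave 0 to 10. The count was 10 without ADR_D14 replicate 1 and 0 without ADR_D9 replicate 1 or 3. It was 1 without ADR_D9 replicate 2 or PBS replicate 2, and 2 without PBS replicate 1. Over all genes, 759 of 9568 were higher and 1372 lower without ADR_D14 replicate 1. Without ADR_D9 replicate 1 these were 210 and 291 of 9670. Without ADR_D9 replicate 3 they were 137 and 270 of 9558. The cause of these differences was not tested.

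Whether replicate numbers pair the libraries is not in the labels. Deviations from the group means correlated at −0.27 to 0.43 for same-numbered libraries of different groups. For differently numbered ones the range was −0.52 to 0.46, and pairing was not tested. With the replicate block 0, 2 and 3 members passed in ADR_D9 against PBS, ADR_D14 against PBS and ADR_D14 against ADR_D9. Without ADR_D9 replicate 3 and ADR_D14 replicate 1 together 0, 3 and 3 passed. Of all 9377 genes in these fits, 789 were higher and 1398 lower in ADR_D14 against PBS. Against ADR_D9 these were 447 and 831. Over the named members 1223 values kept their call with its direction or, where uncalled, moved by less than 1 SE of the change. Another 93 uncalled ones moved further, 55 lost a call, 6 gained one, and no called value changed sign. Most values were never called, and the calls held less often. Against PBS on day 14, Hist3h2ba passed in 16 and Hist2h2be in 17 of 22 alternatives. Against ADR_D9, Hist3h2ba passed in 13, Hist1h4h in 8 and Hist2h2be in 7 of 22, and Hist1h3e in 15 of 21. The depth of the ADR_D14 libraries limits what can be said of members under 1 FPKM.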
